A study of Arabidopsis thaliana with 4 samples.

Results

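The regions described here are the 300 with the highest mean peak height in a list of 3419 places where the far-red light protein FHY1 was found on the DNA of Arabidopsis thaliana seedlings. They were chosen by the mean of 3 heights, 1 from each ChIP sample, with ties broken by chromosome and start. The position of a region is the stretch that its 3 blocks have in common, and a block is the interval that the authors' list gives for 1 sample. The seedlings were fhy1-1 mutants with a 35S:GFP-FHY1 transgene, whose promoter is active in nearly all cells, and they were 4 days old and etiolated and had received 3 h of far-red light. DNA bound to the protein was pulled down with an antibody and sequenced (ChIP-seq) in 3 biological replicates, and an input DNA sample was not analysed here. The labels give anti-GFP and the design text anti-FHY1 as the antibody. There was 1 condition and 1 genotype, so association is described between regions and not between treatments, and signal that does not depend on FHY1 cannot be told apart from association.

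FHY1 and its homologue FHL carry the photoreceptor phyA from the cytoplasm into the nucleus when far-red light has activated it. In the nucleus phyA acts with transcription factors such as the PIF, HY5 and LAF1 proteins, and FHY1 has been found together with phyA at promoters. FHY1 is not known as a sequence-specific DNA-binding protein of its own, so ChIP signal is usually read as association through partner proteins. The study asked which genes FHY1 associates with in far-red light.

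The heights are the authors' signal, whole numbers whose scale is not stated. The depth of the libraries is unknown. Since the heights chose the 300, they are given as a description with no test. Mean heights in the 300 ran from 246.3 to 469 with a median of 269.7, against a median of 161.7 in the other 3119 regions. The 5 members just inside the limit had means of 246.3 to 246.7, and the 5 regions just outside it had 246.0 to 246.3. Of 3 regions tied at a mean of 246.3, 2 fell inside and 1 outside by their chromosome, so the limit separates regions that do not differ in height.

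The highest region of all lay on chromosome 1 from 29957151 to 29957661 in TAIR10. Its heights were 454, 495 and 458 in Samples 1, 2 and 3 (469 ± 22.6, SD, n = 3). The 3 samples were close to each other here. It overlapped the adjoining ends of AT1G79620 and NHX6, which encodes an endosomal sodium and proton exchanger, so it cannot be given to 1 of these genes. The second region, on chromosome 5 from 26767411 to 26767971, had heights of 330, 601 and 434 (455 ± 137). Sample 2 stood far above the others, and 601 was the highest value of the whole list. This region overlapped RALFL34, a gene of the RALF family of signalling peptides and the only 1 of 16 matched genes of that list near a member, and lay 154 bp from HEC1, which encodes a bHLH transcription factor known for its part in carpel development. The third region lay at AT1G06550 and AT1G06560 on chromosome 1 from 2007001 to 2007641, with heights of 398, 455 and 474.

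Enzymes of the mevalonate and sterol pathway stood beside several high regions. SQE3 encodes a squalene epoxidase, which makes the precursor of sterols. The fourth region, on chromosome 4 from 17743091 to 17743631, lay 107 bp from SQE3 and 684 bp from ANT, a transcription factor gene of organ growth. Its heights were 412, 471 and 355 (413 ± 58.0, SD, n = 3). HMG1 encodes HMG-CoA reductase, the main control point of the mevalonate pathway. The ninth region lay 419 bp from it with heights of 288, 509 and 276 (358 ± 131), Sample 2 being high and the other 2 alike. SMT1, a sterol methyltransferase gene, lay 204 bp from the region of rank 188, with heights of 198, 355 and 236. That region overlapped another gene, PAO1. In this list 3 of 27 matched genes were within 1000 bp of a member, and 4 of 27 of any region of the series list. Over all protein-coding genes these shares were 1.72% (473 of 27444) and 14.4% (3941 of 27444).

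**Figure D1:**
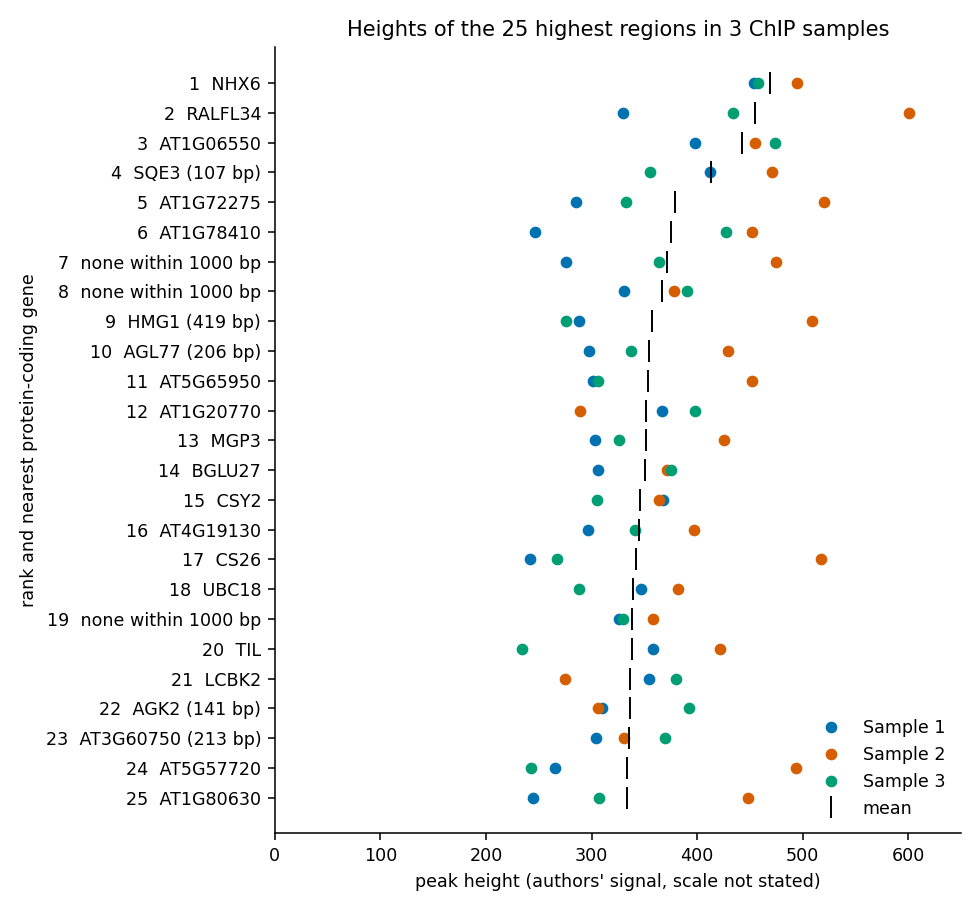
Peak heights (horizontal axis, the authors' signal) of the 25 highest regions in Samples 1, 2 and 3 (points) with their mean (bar), each named by rank and nearest protein-coding gene, with the distance in bp where they do not overlap, or marked as none where that gene is over 1000 bp away. Sample 2 is the highest point in most rows, with 601 at RALFL34, while the 3 points lie close together at NHX6.

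Other regions of the first 25 lay beside genes of transport, primary metabolism and protein turnover. The fifth region overlapped AT1G72275, 310 bp from ERO1, whose product oxidises thiols of proteins folding in the endoplasmic reticulum, with heights of 285, 520 and 333. The sixth overlapped AT1G78410, 961 bp from AT1G78420 (DA2), which encodes a ubiquitin ligase that limits organ size, with 246, 452 and 427. Sample 1 was the lowest at both of them. Metabolic genes overlapped by a region were CSY2 for a peroxisomal citrate synthase (368, 364 and 305), CS26 for a plastid enzyme of cysteine metabolism (242, 517 and 267) and LCBK2 for a kinase of sphingoid bases (354, 275 and 380). AT3G60750 (TKL1), for a transketolase of the Calvin cycle that is outside the photosynthesis list, lay 213 bp from its region (304, 331 and 370), and NAGK, for an enzyme of arginine synthesis, 454 bp from the one it shares with the guanylate kinase gene AGK2 (310, 306 and 392). CHY1, a gene of peroxisomal acyl-CoA breakdown, lay 260 bp from a region that overlapped AT5G65950 (301, 452 and 306).

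Genes of the ubiquitin pathway were SAUL1, for a ubiquitin ligase that delays senescence, with heights of 367, 289 and 398 at a region shared with AT1G20770, and UBC18, for a ubiquitin-conjugating enzyme, with 347, 382 and 288 at a region shared with AT5G43000. The lipocalin gene TIL, which takes part in heat and freezing tolerance, was overlapped by a region with heights of 358, 422 and 234. The same region lay 44 bp from RR18, a type-B response regulator gene of cytokinin signalling, and 827 bp from the SNARE gene YKT61. BIM2, which encodes a bHLH partner of the brassinosteroid factor BES1, lay 378 bp from a region over MGP3 and a tRNA gene (303, 425 and 326). The MADS-box gene AGL77 was 206 bp from the tenth region (298, 429 and 337). The beta-glucosidase genes BGLU27 and BGLU16, the replication protein gene AT4G19130 (RPA1E) with AT4G19140, BPS2, AT3G58760, AT3G03620, AT3G60760, AT5G57720, AT1G80630 and AT1G80640 were the remaining protein-coding genes at the first 25. Mean heights of these 25 regions ran from 333.3 to 469.

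Of the first 25, 3 had no annotated gene of any type within 1000 bp. The eighth region, on chromosome 1 from 2520661 to 2521121, had heights of 331, 378 and 390 and lay 2050 bp from ACA7 (AT1G08080). The nineteenth had 326, 358 and 330, 1530 bp from FBR12, for a translation initiation factor. A gene at such a distance is named as the nearest only.

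Of the lists of light, clock, hormone and metabolic genes, 15 of 416 distinct matched genes lay within 1000 bp of a member (3.61%). The share over all protein-coding genes was 1.72%, and over those with a symbol other than a locus code it was 2.23% (231 of 10374). The lists hold known genes only, so the second share is the nearer background. The members of the lists were chosen with results of these data known and no test was made of them.

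Phytochrome and far-red signalling had 3 of 50 matched genes beside a member. FHL, the homologue of FHY1 itself, was overlapped by the region on chromosome 5 from 437131 to 437491, with heights of 203, 255 and 296 (251 ± 46.6, SD, n = 3). The middle of its 3 summits lay outside FHL, 120 bp from its end, and 227 bp from PCS1, an aspartic protease gene that the region does not overlap, at a distance of 113 bp. Position alone does not give the region to 1 of these genes. PKS2, a phytochrome kinase substrate gene that acts in phyA responses, was overlapped by a region on chromosome 1 from 4877171 to 4877601 with 218, 300 and 288. This region also overlapped AT1G14270, whose end was 89 bp from the middle summit, against 161 bp for PKS2. Position does not give it to 1 of these genes either. PIL2, also called PIF6, encodes a bHLH factor of the family that acts directly below phytochromes, and lay 262 bp from a region with 240, 298 and 231. In the replicate lists the folds were 5.45, 5.39 and 8.21 at FHL and 5.27, 6.02 and 5.99 at PKS2 in replicates 1, 2 and 3. Of the same list, 18 of 50 genes lay within 1000 bp of some region of the series list, where the share over all protein-coding genes was 14.4%.

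Among clock genes 1 of 27 was near a member (3.70%), beside 2.23% of all genes with a symbol. GI, an evening clock gene that promotes flowering, lay 390 bp from the widest of the 300 common stretches, 941 bp long, with heights of 264, 297 and 261. GRP7 and CCR1 (GRP8), which encode RNA-binding proteins under clock control, had heights of 223, 324 and 226 and of 208, 339 and 239. They were the only 2 of 7 glycine-rich RNA-binding protein genes recognised by name near a member, and 3 of the 7 were near the series list. The shares over all protein-coding genes were 1.72% and 14.4%. Both genes were singled out after their values were seen.

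In the lists of auxin genes and of ethylene and cytokinin genes, those near a member were IAA2, AFB2 and ARR9. These lists do not hold every such gene, and RR18, IAA31, SAUR15 and DFL1, given elsewhere here, are outside them. IAA2, an auxin response repressor gene, had heights of 258, 318 and 203, and the middle summit was inside the gene, 140 bp from its end. AFB2, an auxin receptor gene, had 205, 322 and 276. ARR9, a negative regulator of cytokinin signalling, had 280, 230 and 267. The lists gave 2 of 38 auxin genes (5.26%) and 1 of 23 ethylene and cytokinin genes (4.35%), beside 2.23% of all genes with a symbol. No member lay within 1000 bp of any gene of the gibberellin (0 of 17), brassinosteroid (0 of 24), abscisic acid (0 of 22), jasmonate and stress (0 of 30), photosynthesis (0 of 41), chlorophyll synthesis (0 of 21) or housekeeping (0 of 15) lists. Regions lower in the series list lay near 4, 5, 5, 13, 12, 2 and 7 genes of these lists in that order. At a share of 1.72% fewer than 1 gene is reached in each such list, so an empty list of this size is not a result about the pathway. The lists are also incomplete, and BIM2 and BEH4, of the brassinosteroid pathway but outside its list, did lie near a member. EXPA1, a cell wall expansin gene, lay 923 bp from a region with 245, 279 and 272 and was the only 1 of 23 cell wall genes. The same region lay 1 bp from AGL94.

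TT4 encodes chalcone synthase (CHS), the first enzyme of flavonoid synthesis and a classic target of light signalling. It was the only 1 of 21 flavonoid genes at a member (4.76%), beside 2.23% of all genes with a symbol. Its region on chromosome 5 from 4488461 to 4488751 had heights of 464, 144 and 155 (254 ± 182, SD, n = 3). Sample 1 alone put it among the 300, and 464 was the highest value of Sample 1 in the whole list. In the other 2 samples the heights were below the column medians of 190 and 165. Its folds in the replicate lists were 12.37, 4.1 and 6.08 in replicates 1, 2 and 3.

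Heat shock factors and TOPLESS corepressors recurred among the named genes, and the counts that follow were made after this was seen and have no test. The shares over all protein-coding genes were 1.72% near a member and 14.4% near the series list. The list of heat shock and chaperone genes had 2 of 21 near a member. Of 17 heat shock factor genes recognised by name 4 were near a member and 6 near the series list. Families were counted by name here, so genes under other names can be missed. HSFA2 had heights of 214, 259 and 268, HSFA3 had 207, 309 and 287, HSFA8 had 227, 327 and 241 and HSFA9 had 183, 338 and 262. Sample 1 was the lowest at each of the 4. Each of these regions also overlapped another gene. The middle summit lay inside ftsh4 at HSFA2 and inside POD1 at HSFA8. The region 111 bp from HSFA3 overlapped AT5G03710 and a tRNA gene, and that at HSFA9 also overlapped HGO and the snoRNA gene U3D. Position alone does not give these regions to the heat shock factor genes. HSFA2 is the factor that prolongs acquired thermotolerance, and HSFA9 acts in seeds. Of the 5 TOPLESS genes, whose products repress transcription for auxin and other pathways, 3 were near a member. TPL had heights of 267, 288 and 325 with its gene 18 bp away, TPR1 overlapped a member, and TPR2 was 258 bp from one. The members near TPL and TPR2 each overlapped a long noncoding RNA (lncRNA) gene, and that at TPR1 also overlapped PTAC17. Members also lay at 2 of 3 genes of extra-large G proteins, XLG1 and XLG3, and at 2 of 6 CONSTANS-like genes with a COL symbol, COL3 and COL4. COL3 acts in seedling light responses, with heights of 252, 302 and 220 here. Of the 6 genes of the BZR1 and BES1 family only BEH4 was near a member, with 350, 251 and 241, while all 6 were near a region of the series list. MYB genes were near a member in 3 of 115 cases and near the series list in 21.

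Most of the 300 lay across the end of a protein-coding gene. Of the common stretches, 204 of 300 (68.0%, 95% Wilson interval 62.5% to 73.0%) crossed a gene end, against 45.8% of the other 3119 regions (44.0% to 47.5%). Only 20 (6.67%) lay wholly inside a gene, against 16.4% of the others. A further 58 (19.3%) lay outside but within 1000 bp of a gene, and 18 (6%) farther away, against 26.8% and 10.97%. The intervals cover counting error only, and the shares are side by side without a test. Members were also wider, with a median common stretch of 521 bp against 381 bp, and the part of that width in these shares was not tested. In 153 members (51.0%, 45.4% to 56.6%) the middle summit lay outside the gene whose end was nearest, at most 250 bp from that end. The share was 33.0% (31.4% to 34.7%) in the other regions. Such a summit can still lie inside another gene. Counted over all protein-coding genes, the middle summit lay inside a gene in 73 members (24.3%), against 34.7%. Strand was not used here, so starts and ends of genes, exons, introns and UTRs were not told apart.

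**Figure D2:**
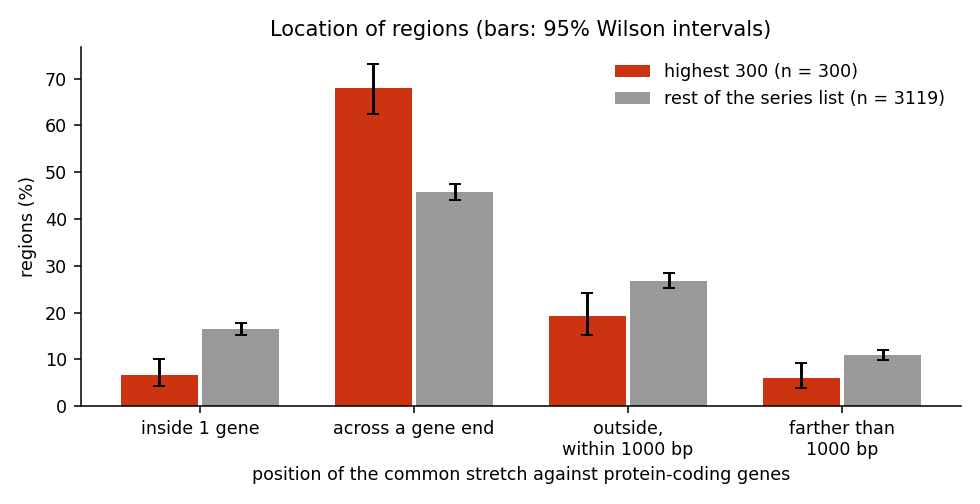
Share of regions (vertical axis, percent) by the position of the common stretch against protein-coding genes, for the highest 300 and for the other 3119 regions, with 95% Wilson intervals. Stretches across a gene end make up 68.0% of the highest 300 and 45.8% of the others.

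The genes around the members stood close together. Of the 227 middle summits that lay between protein-coding genes, the gap between those genes had a median of 1393 bp, against 2208 bp for the 2035 such summits of the other regions. Gaps under 1000 bp held 38.3% of the 227 and 24.9% of the 2035. In 160 members (53.3%) there were 2 protein-coding genes within 1000 bp, in 104 (34.7%) there was 1, and in 18 (6%) there were 3 or more. Among the other regions 40.5% had 2 and 44.9% had 1. The common stretch overlapped 2 or more protein-coding genes in 67 members (22.3%), against 8.62% of the others. For these members the gene cannot be told from position, and 473 genes within 1000 bp is therefore not a count of targets.

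The 18 members without a protein-coding gene within 1000 bp included 9 with no annotated gene of any type there. The farthest lay on chromosome 5 from 6399461 to 6399891, 8116 bp from AT5G19100, with heights of 246, 237 and 290. The shares of genes within 1000 bp of a member are given next by class of gene, beside 1.72% for protein-coding genes. Several rest on few genes, and no difference between them was tested. Of 625 tRNA genes, 10 (1.6%) were within 1000 bp of a member and 9 of them were overlapped. Of lncRNA genes 51 of 3480 (1.47%), of snoRNA genes 7 of 287 (2.44%), of miRNA genes 2 of 326 (0.613%) and of other ncRNA genes 6 of 221 (2.71%) were within that distance. Members overlapped 0 of 3917 annotated pseudogenes of the class not marked as transcribed and 2 of 926 transcribed ones, beside 290 of 27444 protein-coding genes. The whole series list overlapped only 5 and 14 pseudogenes of these 2 classes. Chromosomes 1 to 5 held 90, 37, 68, 40 and 65 members, which is 30.0%, 12.3%, 22.7%, 13.3% and 21.7%, close to the 27.3%, 14.3%, 20.4%, 15.4% and 22.6% of the whole list.

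Members seldom lay next to each other. There were 7 pairs of neighbours under 5000 bp apart, 3 of them under 1000 bp. TSPO, which encodes a stress-induced membrane protein, was overlapped at both its ends, by regions with heights of 194, 314 and 266 and of 201, 271 and 269, the first shared with ALG3, a gene of protein glycosylation. AT4G30490 and AT4G30500 each had a pair of members within 1000 bp, 59 bp apart, with means of 251 and 270.7. The genes AT1G08125, AT3G02630 and AT5G13100 also had 2 members each within 1000 bp.

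The 3 heights of a member were mostly within a factor of 2. The highest was under 1.5 times the lowest in 158 of 300 (52.7%), against 41.9% of the other regions, and at least 2 times the lowest in 30 (10%), against 20%. The median coefficient of variation (SD divided by the mean of the 3 heights) was 20.6% in the members and 23.7% in the others. The 2 sets were split on the mean of these same heights, so the differences are a description and no measure of reproducibility. Without Sample 2 the members' median coefficient over the remaining pair was 12.8%, and without Sample 1 or 3 it was 17.5% and 21.9%. Sample 2 gave the highest height in 193 members and Sample 1 the lowest in 185. Sample 2 was also the highest over the whole list, where the column medians were 136, 190 and 165. After each column was divided by its median, the members' median coefficient of variation was 15.5%, and Sample 1 was the highest in 126 members, Sample 2 in 110 and Sample 3 in 64. How the heights were scaled between samples is not given in the sources used here.

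**Figure D3:**
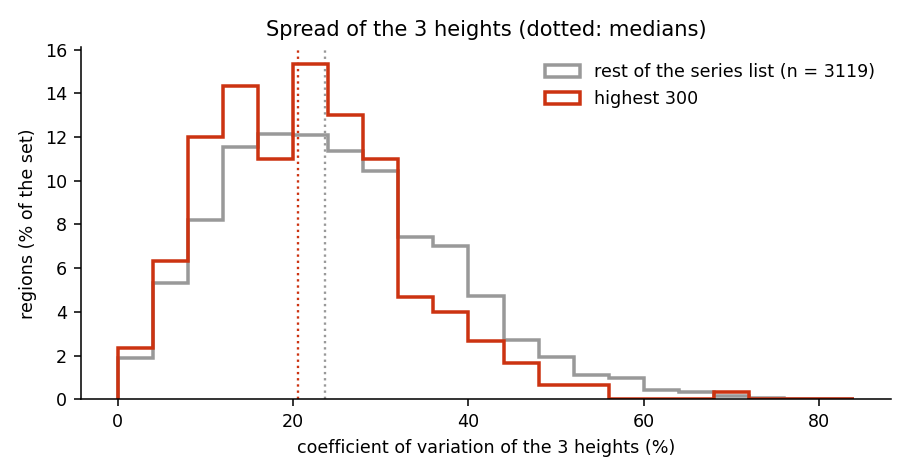
Distribution of the coefficient of variation of the 3 heights (horizontal axis, percent) in the highest 300 and the other 3119 regions (vertical axis, percent of each set), with the medians of 20.6% and 23.7% dotted. The 2 distributions overlap over most of their range.

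The members with the most even heights were AT5G05140 (270, 269 and 261), AT4G14900 (260, 252 and 251), CAND1 (272, 261 and 270), the stretch over a tRNA gene 297 bp from MBD8 (261, 249 and 260) and AT3G53390 (308, 303 and 320). CAND1 regulates cullin ubiquitin ligases and MBD8 encodes a methyl-CpG-binding domain protein. At AT5G05140 the summit was at the same base in each sample. The least even members were TT4, given above, FBA6 for an aldolase of glycolysis (155, 400 and 189), AT1G69510 with the neighbouring CYP704B1 (137, 415 and 239), a region 2968 bp from BAM1 (125, 397 and 265) and the translation release factor gene ERF1-3 (261, 521 and 205). In 4 of these 5 Sample 2 was far above the others, and in TT4 it was Sample 1. The same replicate lists gave folds of 5.88, 11.49 and 5.17 at ERF1-3, where 11.49 was the highest fold of the replicate 2 list.

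The order of the members differed between samples. Spearman's rho between heights over the 300 was -0.12 for Samples 1 and 2, 0.16 for 1 and 3, and -0.13 for 2 and 3. Over all 3419 regions it was 0.56, 0.67 and 0.56. Choosing regions by the sum of the same heights narrows their range and pushes these values down, so the low values within the 300 are no measure of how well the samples fit each other. Of the 300, 60 were among the 300 highest in each of the 3 samples taken alone, 139 in 2 samples, 98 in 1 and 3 in none. By sample, 194, 184 and 178 members were in the 300 highest of Samples 1, 2 and 3.

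**Figure D4:**
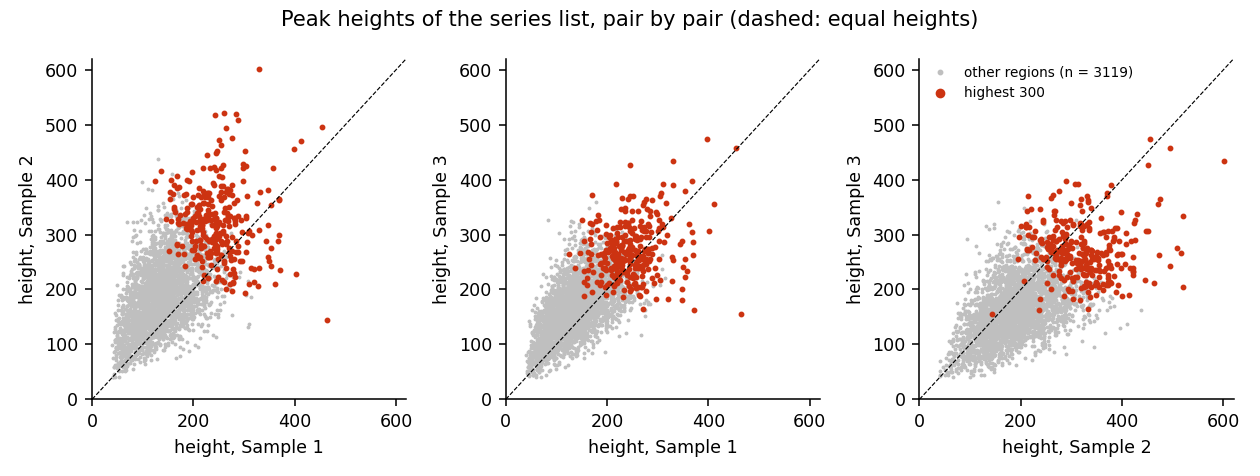
Heights of all regions of the series list in each pair of samples (both axes, the authors' signal), with the highest 300 in red, the other 3119 in grey and equal heights dashed. Among the 300, rho is -0.12, 0.16 and -0.13, and TT4 stands alone at 464 in Sample 1 with 144 and 155 in Samples 2 and 3.

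Summits lay closer together than the blocks are wide. The distance between the outermost of the 3 summits had a median of 80 bp in the members, the same as in the other regions, and 91 members (30.3%) had all summits within 50 bp. In 298 of 300 members each summit was inside the common stretch, against 91.1% of the others. The span ran from 0 to 360 bp, with the largest at ALDH3I1, an aldehyde dehydrogenase gene. Block edges often coincided in 1 pair of samples. Samples 2 and 3 had the same block start in 171 of 300 members (57.0%) and the same end in 171, while Samples 1 and 2 shared a start in 8 and an end in 4. The same pattern held over the whole list, with 54.3% and 49.8% for Samples 2 and 3. The median block was 770 bp wide in Sample 1, 591 bp in Sample 2 and 521 bp in Sample 3.

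The lists of peaks for each replicate hold other measures of the same libraries, and each of the 3419 regions, members included, overlapped a peak in all 3. Since the labels do not tie the samples of the series list to replicate numbers, the 2 were not matched. The authors' fold enrichment over an unstated background had a median of 5.11, 5.72 and 5.50 at the members in replicates 1, 2 and 3. The medians were 4.21, 4.81 and 4.90 at the other regions and 4.06, 3.92 and 4.16 over all peaks. Members had medians of 741, 1009 and 943.5 tags per peak, against 482, 699 and 713 at the other regions and 444, 360 and 451.5 over all peaks. Their fold was above the median of the list in all 3 replicates for 233 of 300 and above the 90th percentile in all 3 for 32. The other regions were not counted in this way, so the 233 has no share to stand beside. Their median fold was at percentiles 56.2, 77.1 and 73.8 of the 3 lists, against 81.2, 90.5 and 85.8 for members. The member next to MYB120, 598 bp away, was the only 1 under the median in all 3, with folds of 3.57, 3.70 and 3.69, although its heights were 287, 363 and 304.

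**Figure D5:**
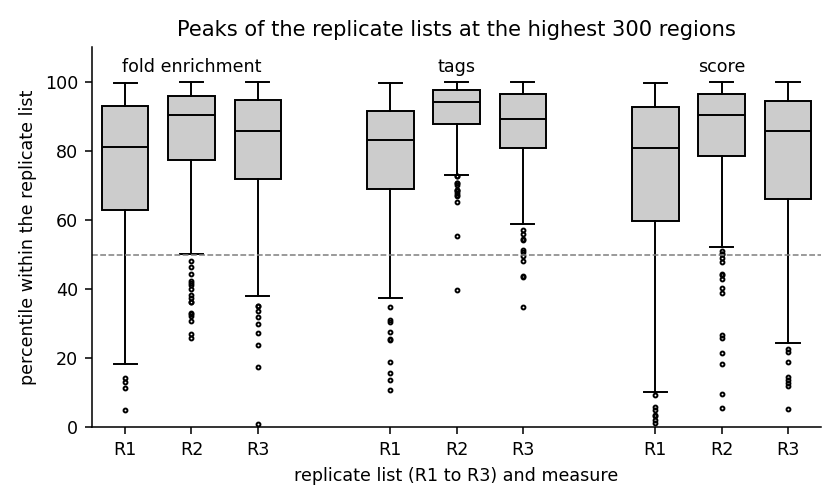
Percentile of the peak at each of the 300 members within its replicate list (vertical axis), for fold enrichment, tags and score in replicates 1 to 3. Boxes show quartiles and median, whiskers reach 1.5 times the box height, points lie beyond, and the dashed line is the middle of the list. Medians lie above the 80th percentile in each case, while the lowest member by score in replicate 1 is at 1.19.

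A high mean height was not the same as a high rank in the replicate lists. Of the 300 peaks with the highest score in replicates 1, 2 and 3, 40, 29 and 28 lay at a member (13.3%, 9.67% and 9.33%). By fold 41, 24 and 27 did. Over all peaks of these lists the shares were smaller, with 298 of 8423, 299 of 28170 and 298 of 19150 at a member. Of the 300 highest peaks by score, 125, 135 and 146 lay at any region of the series list. Over all peaks 2917, 2980 and 2937 did. Across the 300, Spearman's rho of mean height was 0.04 with the mean fold and 0.32 with the mean tags of the 3 lists. Across all 3419 regions it was 0.43 and 0.17. These values share the libraries and are descriptions. The deposited false discovery rate was at 1% or less in all 3 lists for 100 members (33.3%) and above 1% in all 3 for 17. The other regions were not counted over the 3 lists together. In single lists the rate was at 1% or less for 82.7%, 46.0% and 74.7% of members in replicates 1, 2 and 3. These shares were 94.4%, 60.2% and 79.1% at the other regions and 95.7%, 66.7% and 76.0% over all peaks.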

How the data were processed

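The submitters' processing notes name Bowtie and the build TAIR10. For the peak caller and its background, nothing is given in the sources used here. The deposited series list gives a height per block as signal, whole numbers of at least 40, in columns headed Sample 1 to Sample 3. The authors' replicate lists have no header, and their columns were read from the values: a tag count, a score, a fold enrichment as a ratio and a false discovery rate in percent per deposited peak. The lists hold peaks past the authors' thresholds only.

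Regions were ranked by the mean of the 3 heights. Distances are between the common stretch and 37899 nuclear genes of a RefSeq table (TAIR10.1), 0 where they overlap. To check the match of builds, the middle summits of the list were moved: 33.8% lay in genes unshifted, and 67.6% and 66.3% at 2000 bp to either side. A peak was taken at a region if it overlapped by at least 1 bp, the largest overlap first. No test was made, since the members were chosen on the heights and there is 1 condition. Named genes are those at the 25 highest, the 5 most and 5 least even members, listed genes, and genes with 2 or more members. Of 434 list symbols 418 matched. The members and lists were chosen with earlier results of these data known. Other rankings, flanks, numbers of regions and thresholds were tried. Interval arithmetic was tested on simulated data. Python 3.11.15, pandas 2.3.3 and scipy 1.17.1 were used. The planned search for motifs was not run, for want of a genome here. Values at some genes are not reported here.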

Additional observations from a re-analysis of the deposited data

How the results depend on the processing

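Ranking by the median or lowest height, by ranks or by scaled columns kept 240, 221, 262 and 280 of the 300 members, and leaving out 1 sample kept 228 to 240. Protein-coding genes within 1000 bp numbered 460 to 476 without 1 sample, 237 for the highest 150 regions and 890 for the highest 600, since fewer or more regions were taken. The share overlapping a protein-coding gene (74.7%) was 71.7% to 75% without 1 sample and 79.7% with whole blocks, which are longer. The share with no gene in the flank (6%) was 11.3% at 500 bp, 3% at 2000 bp and 5.33% to 6.67% without 1 sample. The median coefficient of variation was 15.5% on scaled columns and 12.8% to 21.9% without 1 sample. With peaks at a false discovery rate of 1% or less, 33.3% of members had a peak in all 3 lists and the median fold in replicate 2 was 4.93 in place of 5.72, and the cause was not tested. All 3419 regions had a peak in all lists (100%), so leaving out 1 sample, added after seeing the data, could not change that share. No paired analysis was possible because there is 1 condition. Depth is unknown and sets no limit that can be given.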

Other observations

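Further named genes within 1000 bp of a member, singled out after their values were seen and given as values only, included 3 chaperone genes of the organelles. The regions at mtHsc70-1, for a mitochondrial Hsp70, CR88, for the plastid Hsp90, and cpHsc70-1, for a plastid Hsp70 at 281 bp, had heights of 219, 357 and 234, of 229, 333 and 237, and of 160, 373 and 220 in Samples 1, 2 and 3. Sample 2 was the highest at each. The middle summit lay inside AT4G37920 at mtHsc70-1 and inside AT4G24290 near cpHsc70-1. Genes of light harvesting and heme were LHCB4.3, for an antenna protein of photosystem II, with 234, 327 and 255, and FC2, for a ferrochelatase, at 634 bp from a region with 199, 368 and 209. The region near FC2 overlapped AT2G30385. LHCB4.3 was not in the list of photosynthesis genes, nor FC2 in that of chlorophyll synthesis.

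Values at hormone and development genes outside the lists follow. The auxin-related genes SAUR15, IAA31 and DFL1, the last at 963 bp, had heights of 186, 373 and 208, of 247, 268 and 309, and of 292, 251 and 211. ERF2, for an ethylene response factor, had 236, 317 and 315. HYL1, for a double-stranded RNA-binding protein of microRNA processing, had 215, 369 and 268. CLV1, for a receptor kinase that limits the shoot meristem, lay 370 bp from a region with 219, 216 and 314, and ANL2, for a homeodomain factor of the epidermis, had 289, 269 and 265. IAA31 shared its region with BSH, ERF2 with AT5G47210 and HYL1 with AT1G09690. At HYL1 the middle summit lay inside AT1G09690, and near CLV1 it lay inside a lncRNA gene.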
